A study of Mus musculus with 6 samples.

Results

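The protein glycosylation enzymes were taken as the probe sets with a single gene symbol among the Alg, Dpm, Pig, Mgat, Galnt, St3gal, St6gal, St6galnac, B4galt and Fut genes, or one of the oligosaccharyltransferase subunits Rpn1, Rpn2, Ddost, Stt3a, Stt3b and Dad1. There were 137 such probe sets for 75 genes, of 22626 on the array without its controls. ER steps held 64 probe sets for 31 genes and Golgi steps 71 for 43 genes. The other 2 belong to Pigr, the polymeric immunoglobulin receptor, whose name fits the letters of the Pig genes but which is no glycosylation enzyme, so it was kept apart. C2C12, an established mouse myoblast line, was fused into myotubes over 5 days in medium with 2% horse serum. One group of 3 arrays came from myotubes given 500 µM palmitate, a saturated long-chain fatty acid, for 16 h, and the other group of 3 from myotubes given 1% bovine serum albumin (BSA) for the same time. The labels of the palmitate samples name no carrier, so whether both groups had the same amount of albumin is not given in the sources used here. Nothing in the labels says that the replicates were separate cultures, so the p-values measure the spread between these arrays, which may be technical.

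N-linked glycosylation starts on the lipid dolichol in the ER membrane, where the Alg enzymes build an oligosaccharide sugar by sugar from nucleotide sugars and from mannose and glucose carried by dolichol phosphate. Oligosaccharyltransferase then moves the finished oligosaccharide to asparagines of proteins entering the ER. The Pig enzymes build another ER product, the glycosylphosphatidylinositol (GPI) anchor that holds some proteins on the cell surface. In the Golgi, Mgat enzymes branch the N-glycans, Galnt enzymes start O-linked chains, and B4galt, sialyltransferase and Fut enzymes add galactose, sialic acid and fucose. In muscle, glycans on dystroglycan tie the fibre to its surrounding matrix.

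Signals here are the deposited linear intensities, and a probe set was tested when its mean log2 signal over the 6 arrays lay above the 40th percentile of all (a signal of 267.1). Differences are log2 fold changes, palmitate over BSA, with their SE from limma and n = 3 arrays per group, and "passed" means a limma adjusted p under 0.05 over the 13575 probe sets tested. Correlations of log2 signals were 0.943 to 0.959 within a group and 0.883 to 0.910 between groups. All 10 myotube markers were measured and none passed with limma (0 also at an unadjusted p under 0.05, median -0.10, though 4 of 10 passed downwards with a median of -0.43 after the scaling to hybridisation controls described below), with a summed signal of 142015 to 230293 with BSA and 160921 to 170978 with palmitate. Of 5 fibroblast markers, 4 were tested and all 4 fell (Col1a1, Col3a1, Dcn and Pdgfra, with Thy1 below the filter), with a summed signal of 62052 to 76615 with BSA and 15456 to 20503 with palmitate. Of 3 tested markers of proliferating myoblasts, Mki67 and Top2a fell and Myf5 was at -0.24 ± 0.28 (summed signal 12259 to 15550.4 with BSA and 5848 to 7633 with palmitate, with Pax7 below the filter). The 3 adipocyte markers on the array were all below the filter, and the 2 macrophage markers tested, Csf1r and Adgre1, did not pass with limma (1 of them, Csf1r, was higher at an unadjusted p under 0.05). In such bulk samples fewer cells of a type and less RNA per cell cannot be told apart, and the part of these marker changes in the enzyme results below was not tested.

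Palmitate moved individual enzymes in both directions, and the share of member probe sets that passed was close to that of the array. Of 87 member probe sets tested, 9 rose and 10 fell, where 19.2% of all probe sets tested passed (8.63% higher and 10.6% lower) and 21.8% of the members did. By gene, each through its probe set with the highest mean signal, 6 of 53 rose and 9 fell, or 28.3% (20.2% of all genes passed, 7.92% higher and 12.3% lower). The ER and Golgi steps are given apart. Among 52 ER probe sets, 6 rose and 4 fell with a median of 0.16. Among 35 Golgi probe sets, 3 rose and 6 fell with a median of -0.26, and 30 of the 35 had a log2 fold change below 0 against 21 of the 52 ER probe sets (37 of 52 ER probe sets after the scaling to hybridisation controls described next). Over all probe sets the median was -0.0083. The 3 palmitate arrays lay all above or all below the 3 BSA arrays for 37 of the 87 member probe sets (42.5%), and for 37.2% of all. By gene this was so for 23 of 53 members and 38.3% of all genes. Of the 87, the filter kept 2 through their palmitate arrays alone (1427557_at of Alg12 and a Pign probe set) and 1 of Pigk through its BSA arrays alone. Whether the ER and Golgi groups differ was not tested, and these counts describe the members measured.

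The direction of the ER median rests on how the arrays are scaled, and the size of the Golgi median on the scaling and on the filter (-0.090 over all 71 Golgi probe sets with no filter). Hybridisation controls are RNAs added in set amounts to the hybridisation mix of each array, so they do not measure the RNA taken from the cells. They were brighter on the palmitate arrays by 0.33 on the log2 scale (12.82 ± 0.14 with BSA and 13.15 ± 0.14 with palmitate, mean ± SD of 3 arrays over 9 probe sets). Scaling to them lowered every log2 fold change by that amount and put the median of all probe sets at -0.34. The ER median then turned from 0.16 to -0.17 and the Golgi median from -0.26 to -0.59. The calls became 4 higher and 9 lower among ER probe sets, and 0 higher and 11 lower among Golgi probe sets, beside 2.98% higher and 23.3% lower over the array. The 10 member probe sets that passed after this scaling but not as deposited, all lower, were those of Alg1, Dpm1, Pigk, Pigq, Pigt, Mgat4b, Galnt1, Galnt2, B4galt6 and St3gal4 (1 each). Relative to the median of all probe sets, the ER median differed by 0.17 and the Golgi median by -0.25 under either scaling. That these do not change follows from the equal shift of every probe set and tests nothing. Of the 19 member probe sets that passed, 5 kept their call under every other setting and every array left out, and they belong to Alg12, Stt3b, Piga, Pigp and St3gal5. With 1 array left out, the ER falls numbered 1 to 5 (1 without BSA 3, and 2 without BSA 2 or palmitate 3), the Golgi falls 1 to 4 (1 without BSA 2, 2 without BSA 3, and 3 without BSA 1, palmitate 1 or palmitate 3) and the Golgi rises 0 to 2 (0 without BSA 2, and 1 without BSA 3 or palmitate 2).

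**Figure D1:**
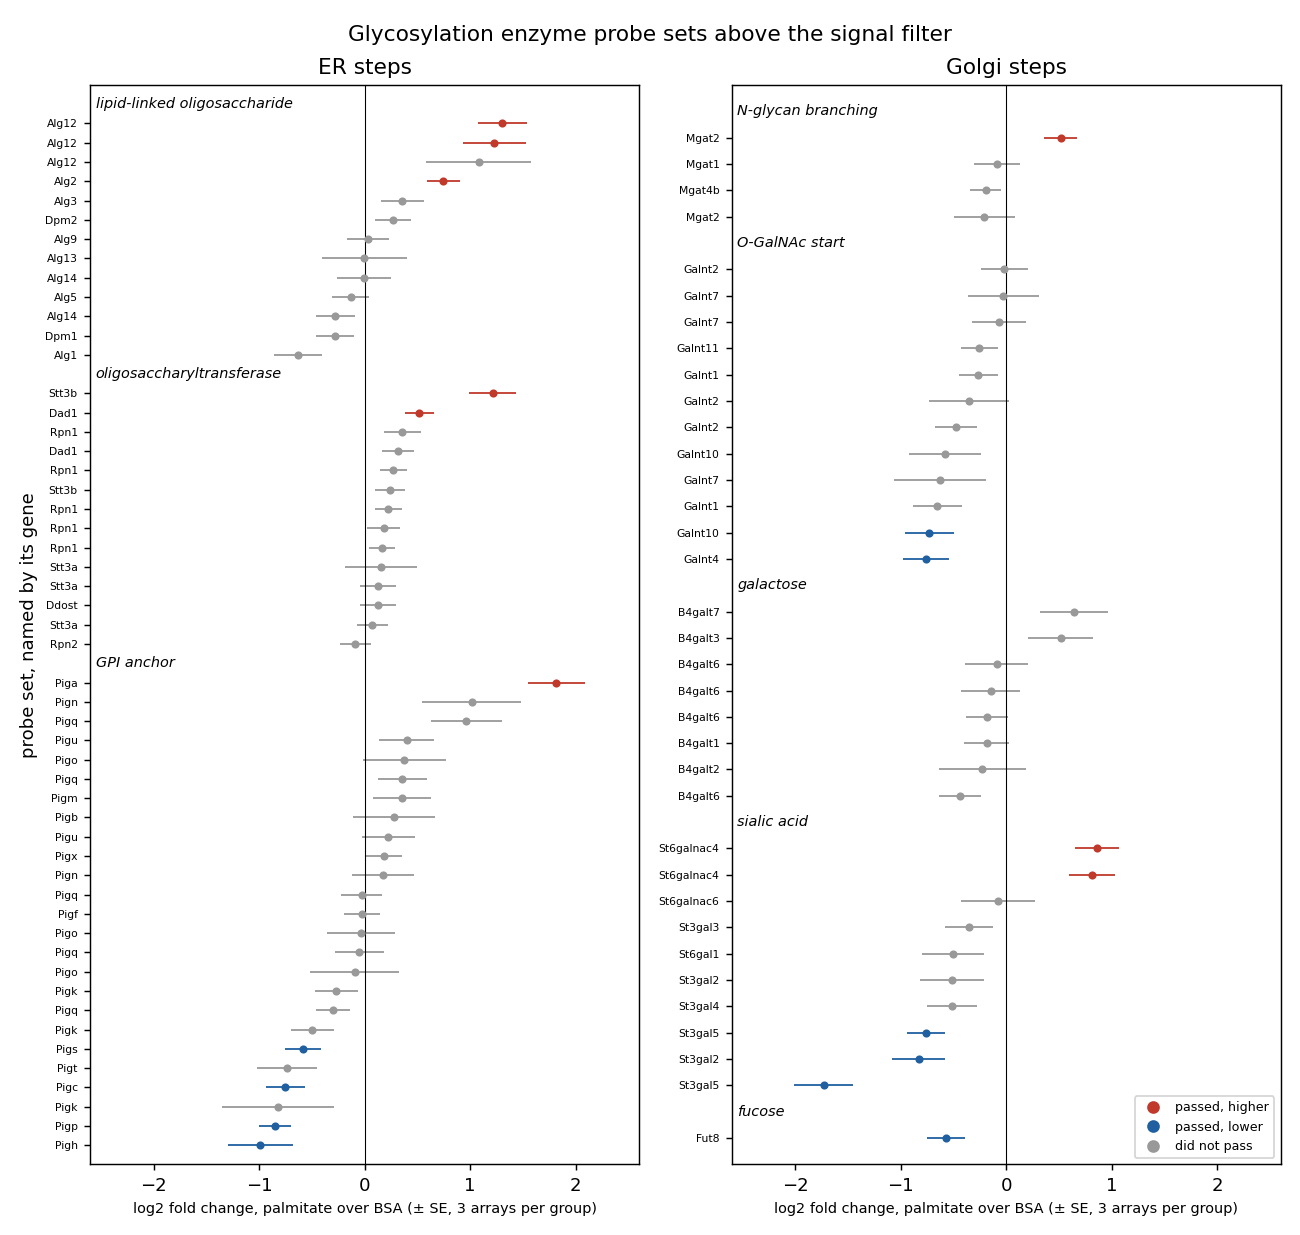
Log2 fold change (x axis, palmitate over BSA, ± SE, 3 arrays per group) of the 87 member probe sets above the signal filter, with ER steps on the left and Golgi steps on the right, each named by its gene and coloured by whether it passed. Alg12, Stt3b and Piga lie farthest to the right, and the Golgi probe sets lie mostly to the left of 0.

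In the assembly of the lipid-linked oligosaccharide Alg12 and Alg2 rose among 10 genes tested, and no gene passed downwards with limma (Alg1 alone had an unadjusted p under 0.05 in that direction). Over all genes 7.92% passed upwards and 12.3% downwards. Alg12 adds a mannose to the growing oligosaccharide on the lumenal side of the ER. Its probe set 1427558_s_at read 549, 562 and 553 with BSA and 1148, 1786 and 1252 with palmitate. Probe set 1424818_at read 611, 508 and 593 with BSA and 884, 1249.9 and 2156 with palmitate. The 3 palmitate arrays lay above the 3 BSA arrays for each, with the palmitate arrays more widely spread. The differences were 1.30 ± 0.23 (limma adjusted p = 0.00224), or 2.47-fold, and 1.23 ± 0.30 (adjusted p = 0.0140), or 2.35-fold. Another Alg12 probe set, 1427557_at, read 251, 92.3 and 278 with BSA and 411, 356 and 416 with palmitate and did not pass (1.08 ± 0.50, adjusted p = 0.153). The mean of its BSA arrays lies below the signal filter, which kept it only through the palmitate arrays, so its separation supports nothing. The call of 1424818_at ended on leaving out BSA 2 or palmitate 3 (where the adjusted p reached 0.0628).

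Alg2 adds the next mannoses on the cytosolic side, after the first. Signals of Alg2 were 1873, 1836 and 2051 with BSA and 3378, 3135 and 3152 with palmitate, a tight pair of groups with a wide gap. Alg2 rose by 0.75 ± 0.16 (limma adjusted p = 0.00604, 1.68-fold), and did not pass after scaling to the hybridisation controls (adjusted p = 0.167). Alg1, which adds that first mannose, read 1684, 1504 and 1143 with BSA and 761, 1129 and 904 with palmitate. Its palmitate arrays all lay below its BSA arrays, but Alg1 did not pass (-0.63 ± 0.23, adjusted p = 0.0730, and 0.0101 after scaling to the hybridisation controls). Alg3, which adds the first lumenal mannose, was at 0.36 ± 0.21 from signals of 1319, 1236 and 897 with BSA and 1474, 1330.4 and 1572 with palmitate. A regulatory subunit of the synthase that makes dolichol phosphate mannose, Dpm2, was at 0.27 ± 0.17. Alg3 and Dpm2 did not pass, and the Alg3 groups were set apart by a narrow margin. Dpm1, the catalytic subunit of that synthase, was at -0.28 ± 0.18, Alg5, which makes dolichol phosphate glucose, at -0.13 ± 0.17, and Alg9 at 0.032 ± 0.20. Alg13 and Alg14, which together add the second N-acetylglucosamine, lay between -0.28 and -0.0019.

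Alg12 starts beside another gene on the opposite strand. The 300-base window from 250 bases before to 50 after its RefSeq start (GRCm38.p6) shares 173 bases with the window of Creld2, which encodes a secreted ER stress protein. The window holds the ER stress response element (ERSE), here searched as CCAAT and CCACG with any 9 bases between them, to which ATF6 binds together with NF-Y. It is shown with the element in capitals because it is 1 of 39 such windows among the 32851 in the table (0.119%, both strands searched). The same bases lie in the Creld2 window, so 1 copy stands between both starts, its nearer end 202 bases before that of Alg12 and 108 before that of Creld2. The Pigp window is shown beside it, with TGACGTGG (the unfolded protein response element, on the opposite strand here) in capitals, because Pigp fell. That motif is in 222 windows (0.676%).
Alg12 (chr15:88819269-88819568, minus strand): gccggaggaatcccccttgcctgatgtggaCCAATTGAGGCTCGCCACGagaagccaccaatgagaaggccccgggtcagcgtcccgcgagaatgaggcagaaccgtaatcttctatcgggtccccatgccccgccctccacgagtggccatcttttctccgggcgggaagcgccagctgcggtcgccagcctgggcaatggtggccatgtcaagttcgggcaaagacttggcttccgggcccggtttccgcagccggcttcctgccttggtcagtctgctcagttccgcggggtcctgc
Pigp (chr16:94370661-94370960, minus strand): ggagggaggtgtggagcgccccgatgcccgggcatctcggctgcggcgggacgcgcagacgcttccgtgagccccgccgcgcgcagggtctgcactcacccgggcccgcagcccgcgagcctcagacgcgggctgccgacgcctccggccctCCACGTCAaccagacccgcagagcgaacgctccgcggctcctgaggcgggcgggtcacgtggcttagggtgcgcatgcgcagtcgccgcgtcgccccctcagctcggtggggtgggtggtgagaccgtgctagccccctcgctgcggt

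Creld2 read 2826, 2559 and 2418 with BSA and 14303, 15042 and 14703 with palmitate, and rose by 2.50 ± 0.14 (limma adjusted p = 1.58e-06), or 5.66-fold. The rise of Alg12 was smaller on this scale, 1.23 ± 0.30 at the probe set used for the gene, and the difference between the neighbours was not tested. A window with the ERSE was found for 37 genes, and 13 of them were tested on the array. Of these 13, 10 rose and 0 fell with limma, at a median of 1.07, beside 7.92% higher over all genes. The 10 count both Alg12 and Creld2, which share the same copy of the element. They also include Calr and Canx, lectin chaperones of glycoprotein folding described further on, besides Hspa5 and Hsp90b1, ER chaperones. The calls of Calr and Canx ended after scaling to the hybridisation controls (limma adjusted p = 0.248 and 0.287). A match of letters is a description of the window and not of binding. Of 58 member genes with a window in the table (80 windows in all), Alg12 alone held the ERSE and none the related ERSE-II (ATTGG and CCACG with any 1 base between), which 12 of all windows hold.

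The Pigp window also overlaps that of a gene on the opposite strand, Ttc3, which fell too (-0.79 ± 0.16, limma adjusted p = 0.00461). In all, 16 member genes had such an overlapping partner window, and in 6 pairs both genes were tested. Both passed in 2 of the 6 pairs, Alg12 with Creld2 and Pigp with Ttc3, each in the same direction within the pair. In the pair of Dad1 and Abhd4, Dad1 passed and Abhd4 was at -0.024 ± 0.17. Cep19, the partner of Pigx, passed downwards (-0.88 ± 0.21, adjusted p = 0.0140) and Pigx was at 0.18 ± 0.18. The palindromic cyclic AMP element TGACGTCA was in 3.75% of the 80 member windows (Alg13, B4galt3 and Galnt11) and 1.79% of all windows, and TGATGNAA, the core of the amino acid response element, in 2.50% (Fut8 and another window of Galnt11) and 3.97%.

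**Figure D2:**
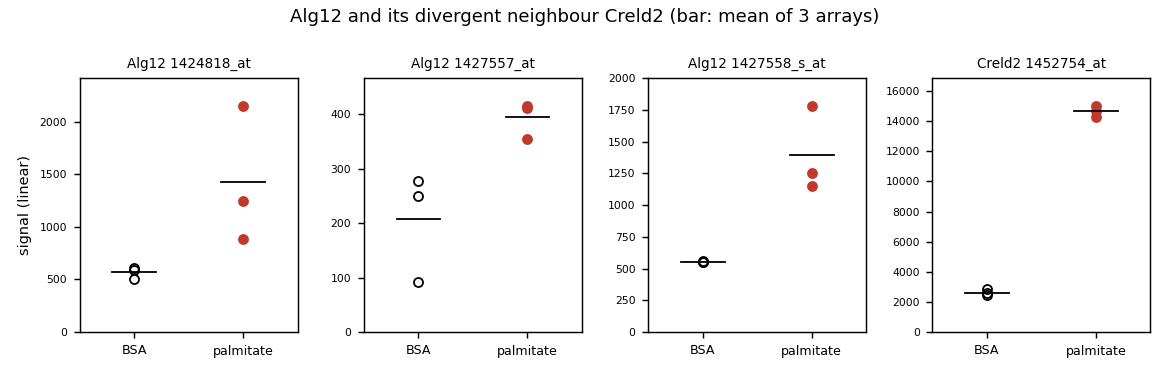
Linear signal (y axis, from 0) on each array for the 3 Alg12 probe sets and for Creld2, with open circles for BSA, filled circles for palmitate and bars at the mean of 3 arrays. The palmitate arrays lie above the BSA arrays for 1427558_s_at, 1424818_at and Creld2 (1427557_at was kept by the filter through its palmitate arrays alone and had to differ), and Creld2 shows the widest gap relative to its spread.

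Among the 6 oligosaccharyltransferase subunits in the set, Stt3b and Dad1 each had a probe set that rose, and the remaining 12 of 14 probe sets did not pass. Over the array 8.63% of the probe sets tested passed upwards. Stt3b is the catalytic subunit of the complex that can glycosylate proteins after translocation, and Stt3a that of the complex acting during it. Probe set 1426343_at of Stt3b read 638, 1017 and 1075 with BSA and 2274, 1905 and 2007 with palmitate, a rise of 1.21 ± 0.23 (limma adjusted p = 0.00308, 2.32-fold). The Stt3b probe set used for the gene, 1426342_at, read 6330.1, 7619.9 and 7219 with BSA and 8849.5, 7639 and 8513 with palmitate, with the palmitate arrays only just above the highest BSA array (0.24 ± 0.14, adjusted p = 0.256). The 2 Stt3b probe sets thus differed in size by 0.97 on the log2 scale (exact permutation test over the 6 arrays, two-sided, p = 0.1, the smallest possible, and 0.6 after Benjamini-Hochberg adjustment over the 6 pairs of probe sets compared). Averaged over both, Stt3b passed at 0.73 ± 0.16 (adjusted p = 0.00809). The 3 probe sets of Stt3a lay between 0.072 and 0.16 and did not pass.

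Dad1, a small structural subunit named as a defender against cell death, read 7479, 6621 and 7255 with BSA and 9138, 11252 and 10221 with palmitate at 1418528_a_at. It rose by 0.52 ± 0.14 (limma adjusted p = 0.0214), while its other probe set, 1454860_x_at, was at 0.32 ± 0.15 from 6166, 5215 and 5728 with BSA and 6642, 6396 and 8371 with palmitate. The call of Dad1 ended on leaving out BSA 2, BSA 3, palmitate 2 or palmitate 3 (where the adjusted p reached 0.0943) and after scaling to the hybridisation controls (adjusted p = 0.494). Ribophorin I, encoded by Rpn1, had 5 probe sets with differences between 0.16 and 0.36, none passing, of which 1456438_x_at read 11215, 11124 and 10107 with BSA and 12461, 12262 and 14538 with palmitate and 1448353_x_at read 5377, 3768 and 4110.0 with BSA and 4869, 6507 and 5501 with palmitate.  The groups did not overlap for 3 of the 5. Ddost was at 0.13 ± 0.17 and ribophorin II, Rpn2, at -0.087 ± 0.15. The 14 probe sets together had a median of 0.20 with 13 of 14 above 0, which became -0.13 with 3 of 14 above 0 after scaling to the hybridisation controls.

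Among 6 further subunits 1 gene rose and 2 fell, beside 7.92% higher and 12.3% lower over all genes. Magt1 and Tusc3 encode alternative oxidoreductase subunits of the complex with Stt3b. Magt1 read 1646, 1545 and 1683 with BSA and 3136, 3141 and 3609 with palmitate and rose by 1.02 ± 0.16 (limma adjusted p = 0.00102). Tusc3 went the other way, with 3731, 4629.7 and 5002 with BSA and 2885, 2468 and 2177 with palmitate, and fell (-0.83 ± 0.17, adjusted p = 0.00665). Neither pair of groups overlapped, and both calls held without any single array and after scaling to the hybridisation controls. Ost4, a very small subunit, fell (-0.53 ± 0.15, adjusted p = 0.0261) from signals of 9269.8, 8468 and 7229.8 with BSA and 5185, 6048 and 6010.4 with palmitate, and its call ended on leaving out BSA 1, BSA 2, palmitate 1 or palmitate 3 (where the adjusted p reached 0.103). Ostc, which docks the Stt3a complex at the translocon, was at 0.35 ± 0.13 (adjusted p = 0.0764, and 0.0471 in the fit with probe sets averaged per gene).

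In GPI anchor synthesis Piga rose, and 3 of the 4 Pig genes counted here as its partner subunits fell. Piga encodes the catalytic subunit of the enzyme that puts N-acetylglucosamine on phosphatidylinositol, the first step of the pathway. Pigc, Pigh, Pigp and Pigq encode further subunits of it, and they are not a full list of its subunits. Piga read 306, 458 and 571 with BSA and 1553, 1298 and 1744 with palmitate, a wide gap between the groups. It rose by 1.82 ± 0.27 (limma adjusted p = 0.000688), or 3.53-fold, the largest rise of any member probe set that was tested.

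Pigp read 5076, 4532 and 4286 with BSA and 2321, 2709 and 2680.1 with palmitate and fell (-0.85 ± 0.15, limma adjusted p = 0.00258). Pigc, with 1958, 1549 and 1817 with BSA and 1028, 1112 and 1007 with palmitate, fell as well (-0.75 ± 0.18, adjusted p = 0.0144). For Pigh the signals were 634, 846 and 1002 with BSA and 586, 335 and 352 with palmitate, and Pigh fell (-0.99 ± 0.31, adjusted p = 0.0432). The palmitate arrays of these 3 genes lay below all BSA arrays. The call of Pigc ended on leaving out BSA 3 (where the adjusted p reached 0.0514), and that of Pigh on leaving out BSA 2, BSA 3, palmitate 2 or palmitate 3 (where the adjusted p reached 0.151). The Pigh call also ended with no filter (limma adjusted p = 0.0926), after median scaling and after quantile normalization. Pigq had 5 tested probe sets that disagreed in sign. Probe set 1426055_a_at was at 0.97 ± 0.33 (adjusted p = 0.0638) from 365, 277 and 551 with BSA and 572, 981 and 742 with palmitate, and 1435416_x_at was at -0.30 ± 0.16 from 2999, 2592 and 2610.4 with BSA and 2120.0, 2343 and 2181 with palmitate. The first was higher and the second lower with palmitate, both without overlap and neither passing. Probe set 1415946_at read 1700.0, 1041 and 1136 with BSA and 1691, 1886 and 1325 with palmitate, 1437999_x_at read 2404, 2834 and 3323 with BSA and 3538, 1889.8 and 3058 with palmitate, and 1438652_x_at read 4099, 3451 and 2732 with BSA and 3434, 2695 and 3941 with palmitate. Their groups overlapped, and the mean over the 5 probe sets was 0.19 ± 0.15 (adjusted p = 0.406).

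The GPI transamidase joins the finished anchor to proteins. Its subunit Pigs read 1937, 2143 and 1983 with BSA and 1441, 1351 and 1262 with palmitate and fell (-0.58 ± 0.17, limma adjusted p = 0.0324), a call that ended on leaving out any array but BSA 1 (where the adjusted p reached 0.119). Pigt was at -0.73 ± 0.29 (adjusted p = 0.0956), its groups without overlap. Pigk, the protease-like catalytic subunit, had 3 probe sets, at -0.82, -0.49 and -0.27, none passing. The filter kept the one at -0.82, 1452801_at, through its BSA arrays alone, so it had to lie below 0. Pigu had 2 probe sets, at 0.23 and 0.40. The enzymes between these steps, which add mannose and ethanolamine phosphate (Pigb, Pigf, Pigm, Pign, Pigo and Pigx), held 9 tested probe sets. The filter kept 1425997_a_at of Pign through its palmitate arrays alone, so it had to lie above 0. None of the 9 passed with limma, beside 19.2% of all probe sets tested, or had an unadjusted p under 0.05. Their median was 0.18 as deposited and -0.15 after scaling to the hybridisation controls. Pigo had 3 of these, of which 1437142_a_at read 374, 202 and 308 with BSA and 469, 346 and 314 with palmitate and 1438155_x_at read 412, 245 and 414 with BSA and 389, 432 and 205 with palmitate. Probe set 1415992_at read 439, 475 and 626 with BSA and 460.2, 705 and 376 with palmitate. The 3 differences ran from -0.092 to 0.38 with overlapping groups. By gene, the pathway had 1 rise and 4 falls among 15 tested, beside 7.92% higher and 12.3% lower over all genes.

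Among genes acting after or beside the Pig enzymes, Pgap2, which remodels the lipid of the anchor, fell (-0.92 ± 0.26, limma adjusted p = 0.0269) from 908, 827 and 1207 with BSA and 417, 606 and 527 with palmitate, and its call ended on leaving out BSA 1, BSA 3, palmitate 1 or palmitate 3 (where the adjusted p reached 0.115). Gpaa1, another transamidase subunit, was at -0.50 ± 0.30 and Pigyl at -0.46 ± 0.20, neither passing as deposited. Both passed downwards after scaling to the hybridisation controls (adjusted p = 0.0463 for Gpaa1 and 0.0316 for Pigyl).

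**Figure D3:**
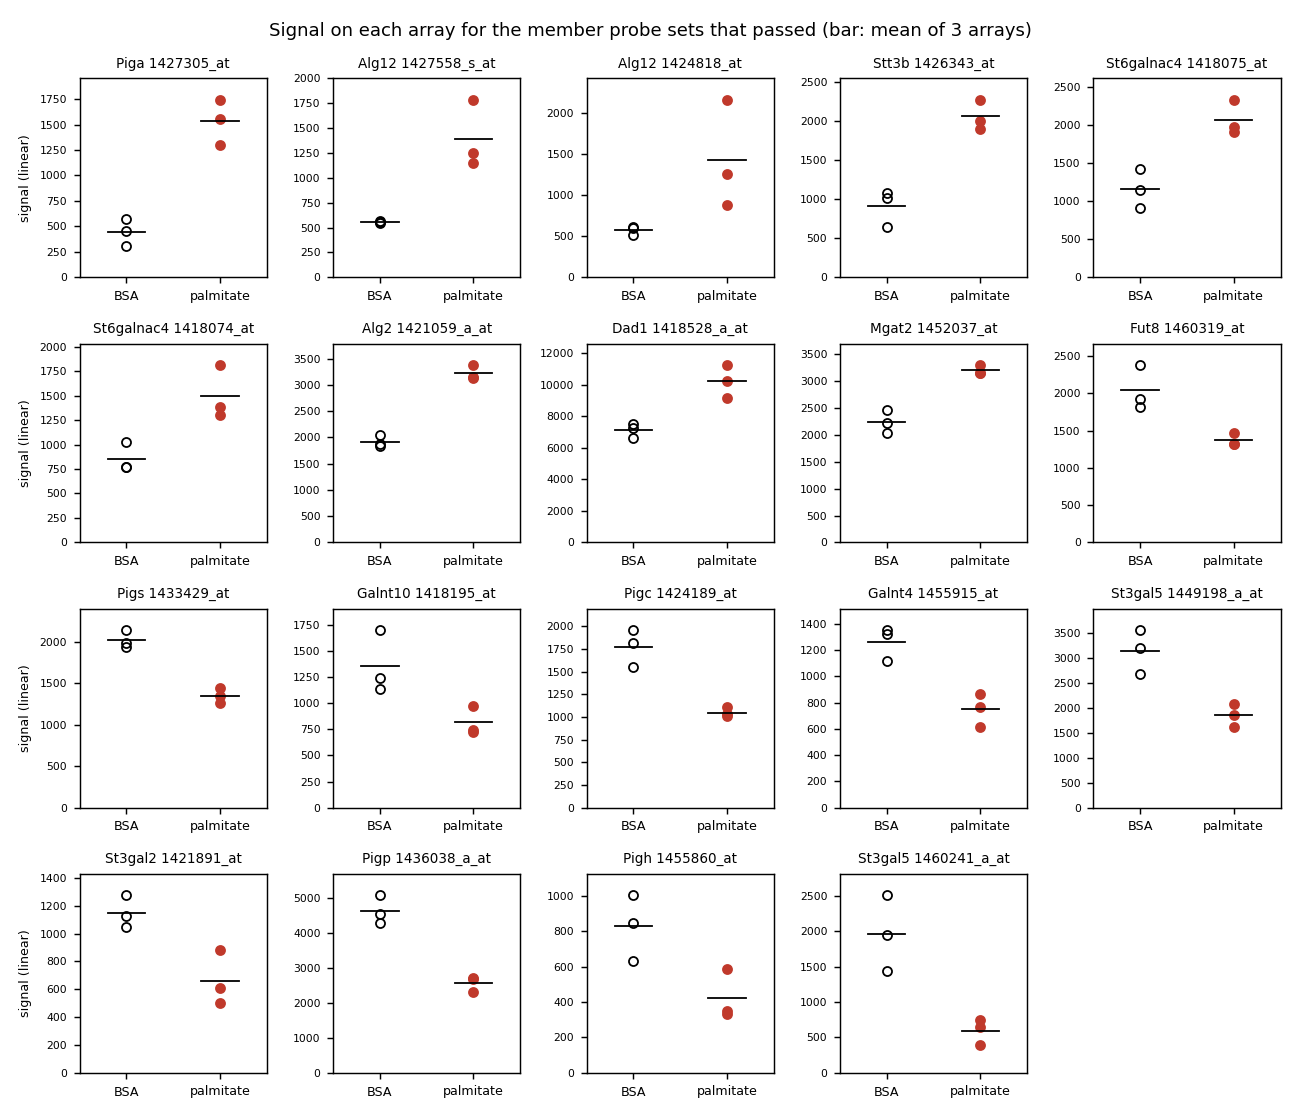
Linear signal (y axis, from 0) on each array for the 19 member probe sets that passed, with open circles for BSA, filled circles for palmitate and bars at the mean of 3 arrays. In every panel the groups are apart, and the widest relative gap is that of Piga.

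Branching of N-glycans in the Golgi was measured by 4 probe sets of Mgat1, Mgat2 and Mgat4b. Mgat2, which opens the second antenna of complex glycans, read 2228, 2471 and 2041 with BSA and 3151, 3303 and 3154 with palmitate at 1452037_at and rose by 0.52 ± 0.16 (limma adjusted p = 0.0380). Its other probe set, 1426350_at, read 1016, 1488 and 1835 with BSA and 1381, 1645 and 792 with palmitate with overlapping groups (-0.21 ± 0.29). The mean of both was 0.15 ± 0.19 (adjusted p = 0.595), and the call of the first ended on leaving out any 1 array (where the adjusted p reached 0.133) and after scaling to the hybridisation controls (adjusted p = 0.548). Mgat1, which starts the conversion to complex glycans, was at -0.087 ± 0.22 from 2581, 2173 and 1771 with BSA and 1716, 2718 and 1779 with palmitate. Mgat4b was at -0.20 ± 0.15, with 5045, 4875 and 4404 with BSA and 3750.0, 4507 and 4256 with palmitate. Neither passed, and both pairs of groups overlapped.

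All 12 tested probe sets of the O-GalNAc starting enzymes, for 6 genes, had log2 fold changes below 0, from -0.76 to -0.017 with a median of -0.41. Over the array 6886 of 13575 did. Of the 12, 2 passed, beside 10.6% lower over the array. The common sign holds for probe sets above the filter only. Those of the family below it had overlapping groups and ran from -0.87 to 0.95 in a fit with no filter. These enzymes put the first sugar on serine or threonine. Galnt4 read 1353, 1119.6 and 1324 with BSA and 869, 618 and 766 with palmitate at 1455915_at and fell (-0.76 ± 0.22, limma adjusted p = 0.0287, and 0.0535 with no filter). Its probe sets 1423637_at and 1423638_at lay below the filter (-0.17 and 0.25 with no filter). Galnt10 read 1699, 1244 and 1135 with BSA and 728, 973 and 745 with palmitate at 1418195_at and fell (-0.73 ± 0.23, adjusted p = 0.0430, and 0.0757 with no filter). Both were without overlap, and the calls ended on leaving out any array but palmitate 1 (where the adjusted p reached 0.0879) for Galnt4 and on leaving out any array but palmitate 2 (where the adjusted p reached 0.143) for Galnt10. The other Galnt10 probe set, 1418194_at, was at -0.58 ± 0.34 from 811, 570.3 and 510.3 with BSA and 404, 288 and 607 with palmitate. Galnt1 was at -0.66 ± 0.23 (adjusted p = 0.0691) with 2629, 3045 and 3535 with BSA and 1974, 1373 and 2669 with palmitate. Galnt2 was at -0.48 ± 0.20 (adjusted p = 0.115) with 3162, 2254 and 2481 with BSA and 1589, 2269 and 1826 with palmitate. For Galnt1 and Galnt2 the groups overlapped, and neither passed as deposited but both did after scaling to the hybridisation controls (adjusted p = 0.00444 and 0.0170). Galnt11 read 1626, 1707 and 1483 with BSA and 1323, 1292 and 1414 with palmitate (-0.26 ± 0.18), without overlap, and Galnt7 had 3 probe sets between -0.63 and -0.027. The family's median stayed below 0 under each scaling, which for the hybridisation controls follows from the shift they give, and 10 of 12 lay below 0 after median scaling and 11 of 12 after quantile normalization.

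Of 8 galactosyltransferase probe sets none passed with limma, beside 19.2% of all probe sets tested, and 1 had an unadjusted p under 0.05. It was 1460329_at of B4galt6, which makes the glycolipid lactosylceramide, at -0.44 ± 0.20 (adjusted p = 0.153) from 1361, 1124 and 1515 with BSA and 968, 899 and 1065 with palmitate. B4galt7, which adds galactose in the linker of proteoglycans, was at 0.64 ± 0.33 with 435, 408 and 642 with BSA and 609, 1171 and 605 with palmitate. B4galt3 was at 0.52 ± 0.31, with 1121, 455 and 996 with BSA and 1145, 1058 and 1230.1 with palmitate. The groups of B4galt7 and B4galt3 overlapped. B4galt1, the main galactosyltransferase of N-glycans, read 2729, 3104 and 2153 with BSA and 2067, 3113 and 1919.7 with palmitate (-0.19 ± 0.22), and B4galt2 read 958, 559 and 798 with BSA and 299, 866 and 1032 with palmitate (-0.23 ± 0.41). The B4galt6 probe set used for the gene read 1474, 2204 and 2049 with BSA and 1751, 1473 and 1769 with palmitate (-0.18 ± 0.20), and its other 2 were at -0.15 and -0.090.

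Of 10 sialyltransferase probe sets 3 fell, for St3gal5 and St3gal2, and 2 rose, both for St6galnac4. By gene 1 of 7 rose and 2 fell, beside 7.92% higher and 12.3% lower over all genes. St3gal5, also known as GM3 synthase, sialylates the glycolipid lactosylceramide and is the start of ganglioside synthesis, so the rule for members took in an enzyme that does not act on proteins. Its probe set 1460241_a_at read 2508, 1433 and 1945 with BSA and 651, 742 and 395 with palmitate and fell (-1.73 ± 0.28, limma adjusted p = 0.00127), 3.32-fold lower and the largest fall of any member probe set tested. Probe set 1449198_a_at read 3557, 3204 and 2679 with BSA and 2086, 1853 and 1618 with palmitate and fell by less (-0.76 ± 0.18, adjusted p = 0.0112), and its call ended on leaving out BSA 2 (where the adjusted p reached 0.0506). Both probe sets were without overlap between groups.

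St6galnac4, which adds sialic acid to the first sugar of sialylated O-glycans, read 1422, 906 and 1143 with BSA and 1909.8, 2336 and 1982 with palmitate at 1418075_at and 1025, 769 and 769 with BSA and 1303, 1812 and 1381 with palmitate at 1418074_at. It rose by 0.86 ± 0.21 (limma adjusted p = 0.0129) and 0.81 ± 0.22 (adjusted p = 0.0223), so its 2 probe sets gave nearly the same size. These calls ended on leaving out BSA 2 (where the adjusted p reached 0.0623) and on leaving out BSA 2, BSA 3 or palmitate 2 (where the adjusted p reached 0.0836), and after scaling to the hybridisation controls (adjusted p = 0.136 and 0.198). St3gal2, which acts on O-glycans and gangliosides, read 1274, 1047 and 1128 with BSA and 609.9, 879 and 498 with palmitate and fell (-0.83 ± 0.25, adjusted p = 0.0368), a call that ended on leaving out any array but palmitate 2 (where the adjusted p reached 0.126). A second St3gal2 probe set, 1421892_at, read 527, 447 and 577 with BSA and 385, 335 and 364 with palmitate, also without overlap (-0.51 ± 0.30, adjusted p = 0.270). Their mean was -0.67 ± 0.23 (adjusted p = 0.0533). St3gal4 was at -0.51 ± 0.24, with 1013, 1482 and 1138 with BSA and 662, 1025 and 864 with palmitate, and did not pass. St6gal1, which caps N-glycans, was at -0.51 ± 0.29 (its other probe set, below the filter, lay the opposite way), St3gal3 at -0.36 ± 0.23 and St6galnac6 at -0.078 ± 0.35.

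Fut8, the enzyme of core fucosylation of N-glycans, was the only Fut gene above the filter. Its signals were 1821, 2382 and 1921 with BSA and 1319.8, 1318 and 1471 with palmitate, without overlap. Fut8 fell (-0.57 ± 0.18, limma adjusted p = 0.0461), and the call ended on leaving out any array but BSA 1 (where the adjusted p reached 0.186). The Fut8 call also ended with no filter, after median scaling and after quantile normalization.

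**Figure D4:**
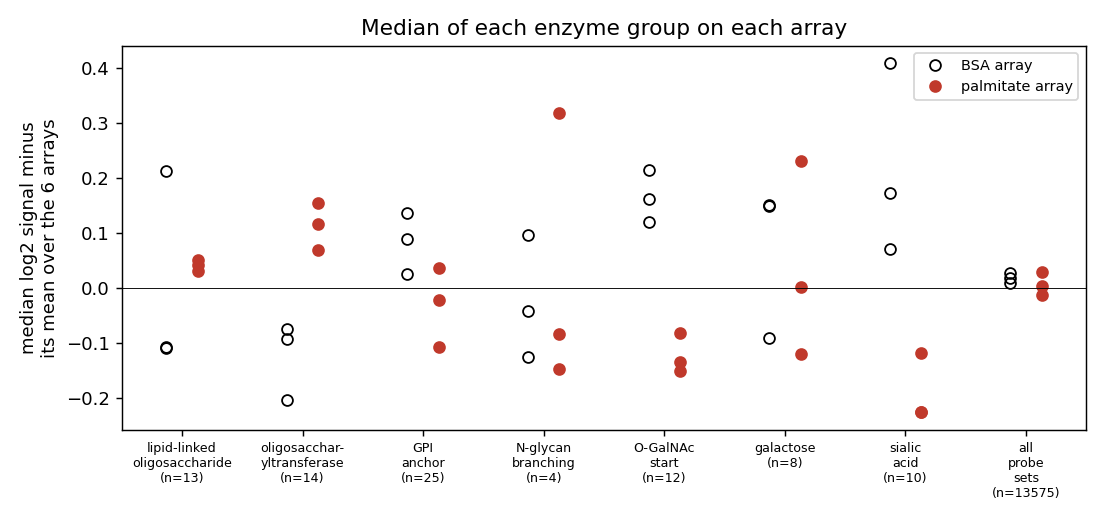
Median over each enzyme group of the log2 signal minus its mean over the 6 arrays (y axis), 1 point per array, with the number of probe sets in brackets and all tested probe sets at the right. The palmitate points lie above the BSA points for oligosaccharyltransferase (a direction that turns after scaling to the hybridisation controls) and below them for the O-GalNAc and sialic acid enzymes, while the groups overlap for lipid-linked oligosaccharide, GPI, branching and galactose enzymes as deposited.

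The filter kept more of the ER genes than of the Golgi genes. Every one of the 31 ER genes had at least 1 probe set above the filter, against 22 of the 43 Golgi genes. The 21 Golgi genes below it were 6 of 7 Fut genes, 6 sialyltransferases, Galnt3, Galnt6 and Galnt16, Mgat3, Mgat4c, Mgat4d and Mgat5, and B4galt4 and B4galt5. No detection calls were used here, so whether these lay above background is not known. Both Pigr probe sets were below the filter too. Fut10, with 371, 322 and 213 with BSA and 44.5, 24.0 and 92.1 with palmitate, had groups that did not overlap, and its difference was -2.67 ± 0.77 (limma adjusted p = 0.0484) in a fit with no filter. It was picked after its values were seen, and at signals this low the size of a difference is uncertain. In all, 50 member probe sets lay below the filter, with mean signals of 6.07 to 324 with BSA and 18.8 to 429.7 with palmitate, and 41 of the 50 had overlapping groups. The other 9 were 7 higher with palmitate (Alg2, Piga, Pign, B4galt2, St6gal1, St6galnac2 and Pigr) and 2 lower (St3gal3 and Fut10). For B4galt2 and St6gal1 this was opposite to the sign of the tested probe set. The share without overlap over all probe sets below the filter was not counted here, so the 9 of 50 stand without a comparison.

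There were 20 member genes with several tested probe sets, and in 17 of the 20 all had the same sign. The exceptions were Mgat2, Pigo and Pigq. For Alg12, Pign and Pigk the filter kept a probe set through the arrays of a single group alone. The sign of such a probe set was fixed by the filter and adds nothing to this agreement. In 6 genes (Alg12, Dad1, Stt3b, Mgat2, Galnt10 and St3gal2) some probe sets passed and others did not. The difference in log2 fold change between the passing and the other probe set ranged from -0.32 for St3gal2 to 0.97 for Stt3b, and the exact permutation p over the 6 arrays, two-sided, was between 0.1 and 0.7. The smallest p such a test allows is 0.1, so it could not pass.

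The supply lines of the pathway were measured by 10 further lists of genes, where 20.2% of all genes passed. In the synthesis of nucleotide sugars 2 of 14 genes rose, and none fell with limma or had an unadjusted p under 0.05 downwards. Gnpnat1, the acetyltransferase of the hexosamine pathway that makes UDP-N-acetylglucosamine, read 1313, 2350.3 and 2075 with BSA and 5805, 4384 and 5319 with palmitate and rose by 1.47 ± 0.22 (limma adjusted p = 0.000721). Gmppb, which makes GDP-mannose, read 448, 613 and 579 with BSA and 919, 1085 and 839.6 with palmitate and rose by 0.80 ± 0.24 (adjusted p = 0.0385), a call that ended on leaving out any 1 array (where the adjusted p reached 0.111) and after scaling to the hybridisation controls (adjusted p = 0.260). Uap1 and Gfpt1 of the hexosamine pathway did not pass, the former at 0.54 ± 0.20 (adjusted p = 0.0782) and the latter, its first enzyme, at 1.05 ± 0.40 (adjusted p = 0.0871). Among 12 carriers of the Slc35 family 1 rose, Slc35b1, which is known to bring ATP into the ER. Its signals were 4684, 3731 and 4139 with BSA and 8729, 9769 and 8509 with palmitate, a rise of 1.11 ± 0.15 (adjusted p = 0.000308), and it held without any single array and after scaling to the hybridisation controls. Slc35a1, the carrier of CMP-sialic acid into the Golgi, was at -0.47 ± 0.16 (adjusted p = 0.0560), Slc35c2 at 0.53 ± 0.27 (0.031 averaged over its probe sets) and Slc35a5 at -0.54 ± 0.32. Slc35a1 passed downwards after scaling to the hybridisation controls (adjusted p = 0.00824). Of 6 dolichol genes Nus1, a subunit of the enzyme that makes the dolichol chain, rose (0.66 ± 0.18, adjusted p = 0.0249) from 2943, 3894 and 3795 with BSA and 5967, 4457 and 6434 with palmitate. The call of Nus1 ended on leaving out BSA 1, BSA 2, palmitate 1 or palmitate 3 (where the adjusted p reached 0.0989) and after that scaling (adjusted p = 0.248), and Srd5a3, Dolk and Dolpp1 were at -0.38 ± 0.26, -0.24 ± 0.19 and 0.26 ± 0.25. Averaged over its probe sets Srd5a3 was at -0.064, and the one used for the gene passed downwards after that scaling (adjusted p = 0.0492).

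Of 14 genes of glycan trimming and folding control 3 rose, and none had an unadjusted p under 0.05 downwards (0 rose and 1 fell after scaling to the hybridisation controls). The chaperones calreticulin and calnexin, which hold glycoproteins through their glucose-capped glycans, rose by 0.59 ± 0.12 (Calr, limma adjusted p = 0.00422) and 0.58 ± 0.13 (Canx, adjusted p = 0.0112). Edem1, which takes misfolded glycoproteins to degradation, rose by 0.87 ± 0.21 (adjusted p = 0.0140). Calr read 21779.6, 20448 and 21291 with BSA and 29916, 33580.3 and 31976 with palmitate, Canx 11302, 11699 and 12362 with BSA and 15482, 17448 and 20085 with palmitate and Edem1 1097, 1659.5 and 1134 with BSA and 2792, 2049.5 and 2202 with palmitate, each without overlap. Scaling to the hybridisation controls ended these calls (adjusted p = 0.248, 0.287 and 0.104), and so, for Canx, did leaving out palmitate 3 (where the adjusted p reached 0.0576) and, for Edem1, leaving out BSA 3 or palmitate 1 (where the adjusted p reached 0.0595). Mcfd2, a cargo receptor partner, was at 0.42 ± 0.17 (adjusted p = 0.106). Man2a1, the Golgi mannosidase that trims N-glycans before the second branch, fell (-1.19 ± 0.19, adjusted p = 0.00105) from 2620.1, 2571 and 2489 with BSA and 1131, 923 and 1347 with palmitate, and that call held without any single array. The other Golgi mannosidases tested, Man1a and Man1a2, were at 0.15 ± 0.45 and 0.14 ± 0.21 (0.53 for Man1a2 with its probe sets averaged).

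Dag1, the gene of dystroglycan, fell (-0.60 ± 0.18, limma adjusted p = 0.0404) from 8973, 6519.5 and 5623 with BSA and 3993, 4938 and 4841 with palmitate. Its call ended on leaving out any array but BSA 3 (where the adjusted p reached 0.137) and with its probe sets averaged (-0.41, adjusted p = 0.155). Of the 5 tested genes of its O-mannosylation none passed with limma, and Pomk, the kinase of that glycan, had an unadjusted p under 0.05 (-0.84 ± 0.32, adjusted p = 0.0912, -0.44 with adjusted p = 0.327 when averaged, and adjusted p = 0.0265 after scaling to the hybridisation controls), while Pomt1 and Pomgnt1 were at 0.44 ± 0.36 and -0.18 ± 0.18. In the extension of O-GalNAc chains 0 of 4 tested genes passed with limma (0 at an unadjusted p under 0.05), Gcnt2, B3gnt2, C1galt1c1 and C1galt1 being at 0.26 ± 0.20, 0.16 ± 0.19, -0.017 ± 0.17 and -0.011 ± 0.24 (averaged, 0.34 for B3gnt2 and 0.29 for C1galt1). For cytosolic O-GlcNAc, Ogt, the transferase, fell at the probe set used for the gene (-0.59 ± 0.17, adjusted p = 0.0269) from 2925, 3702 and 3679 with BSA and 2439, 2304 and 2059 with palmitate, but averaged over its probe sets it was at 0.0015 (adjusted p = 0.997). Its call also ended on leaving out BSA 2, BSA 3 or palmitate 3 (where the adjusted p reached 0.113). Oga, which removes that sugar, was at 0.20 ± 0.23, and passed when averaged (0.61, adjusted p = 0.0220).

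**Figure D5:**
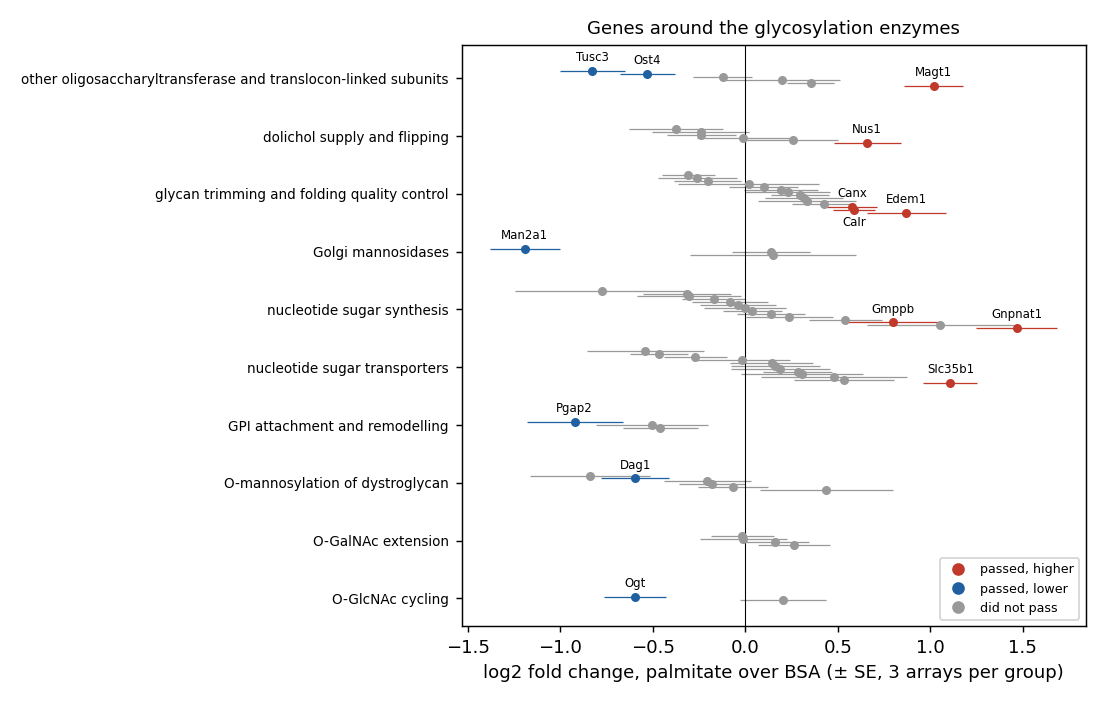
Log2 fold change (x axis, palmitate over BSA, ± SE, 3 arrays per group) of the genes around the glycosylation enzymes, in rows by list, 1 point per gene through its probe set with the highest mean signal, with names on those that passed. Magt1, Gnpnat1 and Slc35b1 lie farthest to the right among those that passed, and Man2a1, Pgap2 and Tusc3 farthest to the left.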

How the data were processed

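RNA of 6 myotube samples, 3 per group, was hybridised to Affymetrix mouse 430A arrays, 1 array per sample. The authors deposited a linear signal intensity per probe set, made with MAS5 per the submitters' processing notes. The deposited arrays have nearly the same trimmed mean, 1500.5 to 1500.56 with 2% cut from each end, so they are taken as globally scaled. Probe sets were named from GEO's platform annotation, and only those with a single symbol were members.

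Control probe sets were left out, log2 was taken with no offset, and probe sets with a mean log2 signal under the 40th percentile were set aside. limma 3.58.1 in R 4.3.3 (lmFit, eBayes with an intensity trend, two-sided) compared the groups, with Benjamini-Hochberg adjustment over all 13575 probe sets kept and a threshold of 0.05. Where a gene had several kept probe sets, the one highest in mean log2 signal stood for it. Per-array values are given for the 6 members of each role with the smallest p and for genes whose probe sets differed in sign or call, and up to 4 genes with the smallest p are named for each list. The members and lists were chosen with earlier results of these data known. Motifs were searched on both strands of the RefSeq promoter windows (GRCm38.p6). Precision is limited by the number of arrays, with a median SE of 0.22 on the log2 scale. On simulated data with 200 of 13575 probe sets changed, the test found 5.40% of changes of 1.5-fold, 32.7% of 2-fold and 94.4% of 4-fold, and 5.82% of its calls were false. In the real data 2609 probe sets passed. The adjusted threshold is stricter when fewer probe sets change, so the shares found in the simulation do not carry over to these data. Between arrays of the same replicate number, deviations from the group mean correlated at -0.23, -0.13 and 0.0091. With 3 arrays per group this cannot show whether the numbers pair the arrays.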

Additional observations from a re-analysis of the deposited data

How the results depend on the processing

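Of the 19 member probe sets that passed, 14 kept the call with no filter, 15 with a 20th percentile filter, 19 with an offset of 64, 17 after median scaling, 16 after quantile normalization, 14 after scaling to the hybridisation controls and 14 with no intensity trend, and none changed direction in any of these. With 1 array left out, 7 (without BSA 2) to 15 kept it. With probe sets averaged, 12 of 15 genes did. Pigh and Fut8 lost the call with no filter, with the 20th percentile filter, after median scaling and after quantile normalization. Galnt10 lost it under the same settings except median scaling. St3gal2 lost it with no filter and with the 20th percentile filter, and Galnt4 with no filter. The ER falls (4) numbered 9 after scaling to the hybridisation controls and 1 to 5 with 1 array left out. The ER rises (6) numbered 4 to 6 with 1 array left out. The ER median (0.16) was 0.20 after median scaling, -0.17 after scaling to the hybridisation controls and 0.12 to 0.16 with 1 array left out. The Golgi falls (6) numbered 3 with no filter, with the 20th percentile filter and with no trend, 11 after scaling to the hybridisation controls and 1 to 4 with 1 array left out. The Golgi rises (3) numbered 0 after scaling to the hybridisation controls and 0 to 2 with 1 array left out. The Golgi median (-0.26) was -0.090 with no filter, -0.59 after scaling to the hybridisation controls and -0.38 to -0.25 with 1 array left out. Over all probe sets 1172 rose and 1437 fell, against 404 and 3169 after scaling to the hybridisation controls, and 746 to 1085 and 833 to 1282 with 1 array left out (both lowest without BSA 2). The median over all (-0.0083) was 0.030 with no filter, 0.036 after median scaling, 0.014 after quantile normalization and -0.34 after scaling to the hybridisation controls. With the replicate number as a block, 11 of the 19 kept the call and the falls numbered 2 among ER and 2 among Golgi probe sets, beside 855 rises and 1118 falls over all. The numbers are not known to pair the arrays, and no array correlated best with its own number in the other group. The cause of these changes was not tested.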
